A study of Homo sapiens with 6 samples.

Results

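The integrin subunit genes that TE-1 cells express were compared between control cells and cells made to overexpress FGL1, a secreted fibrinogen-like protein. TE-1 is an established human esophageal squamous cell carcinoma line. The study put FGL1 or random nonsense sequences into these cells with a lentivirus, and both kinds of cell were sequenced in 3 libraries each. The FGL1 libraries are called FGL1-OE here. The control libraries are called NC after the study's usage, although their genotype is given as WT in the sample labels. All 6 libraries come from the same line and tissue of origin, and the labels do not say whether they came from separate cultures. The study speaks of independent experiments in general without tying this to the libraries, so the p-values measure only the spread between these libraries, which may be technical. The members were chosen by gene symbol as ITGA2, ITGA3, ITGA5, ITGA6, ITGAV, ITGB1, ITGB4, ITGB5, ITGB6 and ITGB8. All 10 were listed among 12180 genes, and they accounted for 34 of the 33090 listed transcripts. Levels are in FPKM, fragments scaled to transcript length and to the number of mapped fragments. This allows a rough comparison between genes and between libraries. It does not correct for base composition, whose relation to level differed between libraries, as described below.

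Integrins are receptors in the cell membrane that join the matrix outside the cell to the cytoskeleton inside it. Each receptor pairs an alpha chain with a beta chain, and the pair decides what is bound. ITGB1 is the shared beta chain of collagen, laminin and fibronectin receptors. ITGB4 pairs only with ITGA6 and anchors basal cells of squamous epithelia to laminin in hemidesmosomes, where its long cytoplasmic tail holds plectin. ITGAV pairs with ITGB5, ITGB6 and ITGB8, whose ligands include vitronectin and latent TGF-beta. Talin and kindlin bind the beta tails and switch the receptors on, and focal adhesion kinase and its partners carry the signal onward.

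FGL1 itself was listed at 0.0202, 0 and 0.106 FPKM in NC 1, NC 2 and NC 3. The FGL1-OE libraries held 33.6, 39.3 and 39.9 FPKM. The difference was 5.21 ± 0.15 (SE) on the log2(FPKM + 1) scale, with an adjusted p of 1.29e-05 by limma, so every library matched its label. Of the 9 squamous epithelial markers, 8 were listed and KRT14 was not. TP63, a transcription factor of basal squamous cells, was at 0.299 to 0.779 FPKM. The summed level of the 8 was 360.5 to 368 FPKM in NC and 443 to 460 FPKM in FGL1-OE. The endothelial markers were all unlisted, CD14 was the only listed leukocyte marker and stayed below 1 FPKM, and the 3 listed fibroblast markers summed to 2.29 to 8.11 FPKM in NC and 3.24 to 8.27 FPKM in FGL1-OE, led by COL1A1, a fibrillar collagen, and COL1A2. In the squamous list KRT6A, a keratin, and CDH1, E-cadherin, stood higher in every FGL1-OE library than in any NC library. Their log2 differences were 0.50 ± 0.18 and 0.54 ± 0.20 (SE), with adjusted p-values of 1.00 by limma. They were 2 of the 7 markers tested, beside 7.15% of all genes with groups that did not overlap. Of the 7, 6 were above 0, and KRT5, a keratin, was at -0.06 ± 0.18 (SE). Whether the difference in KRT6A and CDH1 has a part in any integrin value was not tested.

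TE-1 cells carried the integrin chains at very unequal levels. The highest was ITGB1, at 150 ± 40 FPKM in NC (mean ± SD, n = 3), followed by ITGB4 at 95.2 ± 23.6 FPKM and ITGA3, the alpha chain of a laminin receptor, at 44.0 ± 14.3 FPKM. ITGA2, the alpha chain of a collagen receptor, averaged 21.5 ± 9.9 FPKM. Below these came ITGB5, ITGAV, ITGA6, ITGA5 and ITGB6, with NC means from 14.4 down to 5.93 FPKM, and ITGB8 was last at 1.86 ± 1.28 FPKM. The order in FGL1-OE was the same except that ITGA6 stood above ITGAV. Among neighbours in the NC order, only ITGB4 against ITGA3 and ITGB6 against ITGB8 had ranges that did not overlap. These orders are those of the gene-level values and need not hold for summed transcripts. The gene FPKM was 0.496 to 0.930 times the transcript sum for ITGA3, 1.02 to 1.28 times for ITGB4 and 0.333 to 0.671 times for ITGB5. In the FGL1-OE order only ITGA6 and ITGAV overlapped. Among all listed genes the mean level of ITGB1 was at the 98.7th percentile, that of ITGB4 at the 97.4th and that of ITGB8 at the 23.0th.

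**Figure D1:**
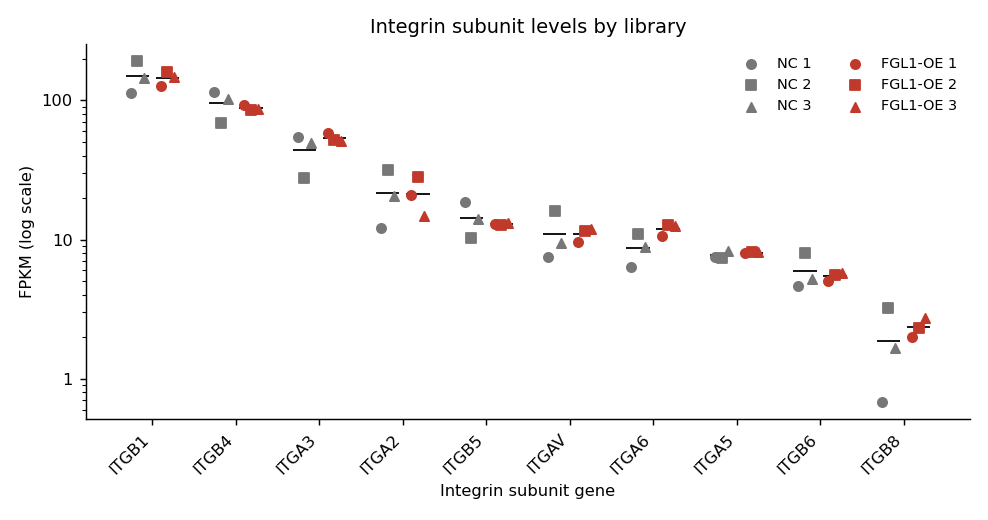
FPKM of the 10 integrin genes (log axis) in each of the 3 NC libraries (grey) and 3 FGL1-OE libraries (red), with bars at the group means and genes ordered by the NC mean. Levels run from 1.86 FPKM for ITGB8 to 150 FPKM for ITGB1 in NC, the NC points are spread more widely than the FGL1-OE points for every gene, and the groups overlap for every gene.

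No integrin gene passed the test between FGL1-OE and NC. The number with an adjusted p under 0.05 was 0 of 10 by limma, beside 0.00832% of all 12017 genes tested, which is FGL1 alone. At an unadjusted p under 0.05 the number was also 0 of 10, beside 2.01% of all genes, and an ordinary linear model gave 0 on both scales. The groups overlapped for all 10 members, beside 7.15% of all genes with groups that did not, and 10 genes are too few to tell these apart. The median log2 difference of the members was 0.05, with 6 above and 4 below 0, and that of all genes was 0.02. Members differed in how closely the libraries agreed. The median SD on the log2 scale was 0.394 in NC and 0.119 in FGL1-OE for the members, and 0.308 and 0.121 for all genes.

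Among the laminin receptor chains, the value farthest from 0 belonged to ITGA6 (ENSG00000091409.14_3, chr2:173292082-173371010, GRCh37), which partners ITGB4 or ITGB1. Its level was 6.30, 10.9 and 8.90 FPKM in NC and 10.6, 12.7 and 12.5 FPKM in FGL1-OE. Only NC 2 reached into the FGL1-OE range, above FGL1-OE 1. The log2 difference was 0.44 ± 0.21 (SE), with a 95% interval from -0.04 to 0.92 and an adjusted p of 1.00 by limma. ITGA3 (ENSG00000005884.17_2, chr17:48133332-48167845) read 54.7, 27.8 and 49.4 FPKM in NC and 58.4, 51.8 and 51.0 FPKM in FGL1-OE. Here NC 2 was the low library and the other 5 lay close together. The log2 difference was 0.34 ± 0.26 (SE), with a 95% interval from -0.26 to 0.93.

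The beta chains of the same receptors were nearer to 0. ITGB4 (ENSG00000132470.13_2, chr17:73717408-73753899) stood at 114, 68.8 and 103 FPKM in NC and at 92.8, 85.4 and 86.6 FPKM in FGL1-OE. NC 1 and NC 3 were above all FGL1-OE libraries and NC 2 was below them. Its log2 difference was -0.08 ± 0.21 (SE), with a 95% interval from -0.56 to 0.41. ITGB1 (ENSG00000150093.18_3, chr10:33189247-33294720) was at 112, 192 and 144 FPKM in NC and at 127, 160 and 148 FPKM in FGL1-OE. The FGL1-OE libraries lay inside the NC range, and the log2 difference was -0.01 ± 0.22 (SE), with a 95% interval from -0.53 to 0.50. These intervals leave room for differences of about 0.5 on the log2 scale either way.

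The collagen receptor chain ITGA2 (ENSG00000164171.10_2, chr5:52285156-52390609) varied widely within both groups. It read 12.1, 31.8 and 20.6 FPKM in NC and 20.9, 28.3 and 14.7 FPKM in FGL1-OE, so NC 2 and FGL1-OE 2 were the highest of their groups. The log2 difference was 0.04 ± 0.36 (SE), with a 95% interval from -0.80 to 0.88. ITGA5 (ENSG00000161638.10_3, chr12:54789045-54813244), the alpha chain of the classical fibronectin receptor, varied least in NC. Its values were 7.55, 7.37 and 8.27 FPKM in NC and 7.95, 8.12 and 8.11 FPKM in FGL1-OE. The log2 difference of ITGA5 was 0.05 ± 0.14 (SE), with a 95% interval from -0.26 to 0.37.

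The ITGAV group, receptors for vitronectin and latent TGF-beta, showed no common direction. ITGAV (ENSG00000138448.11_3, chr2:187454792-187545628) measured 7.54, 16.1 and 9.42 FPKM in NC and 9.58, 11.5 and 11.9 FPKM in FGL1-OE, a log2 difference of 0.06 ± 0.26 (SE). ITGB5 (ENSG00000082781.11_3, chr3:124480795-124620265) measured 18.7, 10.3 and 14.1 FPKM in NC against 13.0, 12.8 and 13.1 FPKM in FGL1-OE, a log2 difference of -0.10 ± 0.21 (SE). In both genes the FGL1-OE values fell inside the NC range. ITGB6 (ENSG00000115221.10_2, chr2:160956177-161128399), an epithelial chain, was at 4.61, 7.98 and 5.19 FPKM in NC and at 5.02, 5.53 and 5.79 FPKM in FGL1-OE, a log2 difference of -0.07 ± 0.20 (SE). ITGB8 (ENSG00000105855.9_2, chr7:20370325-20455377) was the lowest chain, at 0.680, 3.22 and 1.67 FPKM in NC and 2.00, 2.30 and 2.72 FPKM in FGL1-OE. Its log2 difference was 0.32 ± 0.31 (SE), with a 95% interval from -0.41 to 1.05, and NC 1 and NC 2 were its lowest and highest libraries. With a pseudocount of 0.1 the value was 0.54, and with a common sum 0.49.

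The same pair of control libraries stood at opposite ends for 9 of the 10 members, and the end went with base composition. The GC content used for a gene is that of its listed transcript with the highest mean FPKM. ITGA3, ITGB4 and ITGB5, with GC contents of 60.9%, 63.7% and 54.3%, were highest among the NC libraries in NC 1 and lowest in NC 2. ITGA2, ITGA6, ITGAV, ITGB1, ITGB6 and ITGB8, with GC contents from 37.8% to 41.4%, were lowest in NC 1 and highest in NC 2. The log2 difference of NC 1 minus NC 2 was 0.95 for ITGA3, 0.72 for ITGB4 and 0.81 for ITGB5. It was -1.33 for ITGA2, -1.33 for ITGB8, -0.999 for ITGAV, -0.77 for ITGB1, -0.71 for ITGA6 and -0.68 for ITGB6. ITGA5 was the exception, with 0.03 at a GC content of 58.7%.

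The members followed what the whole table did. Over 11786 genes with a known GC content the rank correlation of NC 1 minus NC 2 with GC content was 0.788, and over the 10 members it was 0.842. Those points share the same pair of libraries, so these are descriptions with no test. The median NC 1 minus NC 2 ran from -0.88 on the log2 scale in genes under 40% GC to 0.79 in genes of 60% GC or more. For FGL1-OE minus NC the medians of the same bins ran from 0.08 to -0.10. ITGB5 lay well above the median of 0.06 for its bin of 50 to 55% GC, and ITGA5 lay below the 0.38 of genes between 55 and 60%.

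**Figure D2:**
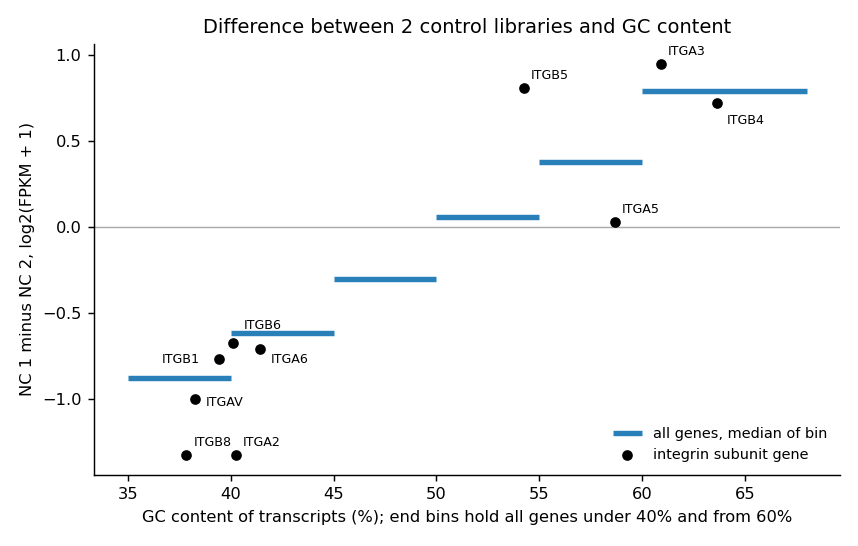
Difference between the control libraries NC 1 and NC 2 in log2(FPKM + 1) against the GC content of each gene in percent. GC content is that of the gene's listed transcript with the highest mean FPKM. The 10 integrin genes are black points, and blue bars give the median of all genes in bins of GC content. Members of low GC content lie between -1.33 and -0.68, ITGA3, ITGB4 and ITGB5 lie between 0.72 and 0.95, and ITGA5 is near 0 at 0.03.

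Leaving out either library moved 9 of the members in opposite directions, and ITGA5 was slightly lower in both fits, at 0.040 and 0.025. Without NC 1 the log2 difference of ITGA2 was -0.30, that of ITGAV -0.16 and that of ITGB8 -0.01, and ITGB4 and ITGB5 were above 0 at 0.07 and 0.10. Without NC 2 the values were 0.36 for ITGA2, 0.34 for ITGAV and 0.65 for ITGB8, and ITGB4 and ITGB5 were at -0.29 and -0.30. ITGA6 kept its direction, at 0.25 without NC 1 and 0.60 without NC 2. ITGA3 went from 0.52 without NC 1 to 0.04 without NC 2. The smallest adjusted p of any member in these fits was 0.194, for ITGA6 without NC 2, by limma. The sign of 7 members differed between these 2 fits. Without NC 2 the number with an unadjusted p under 0.05 was 2, ITGA6 and ITGB8, beside 0 with all 6 libraries. The lists of related genes described below, markers left out, had 21 such genes without NC 2, beside 2 with all 6 libraries. The share of all genes without NC 2 was not taken, so these counts cannot be read as particular to the members or the lists. Low p-values were common in that fit, where ITGB4 had an unadjusted p of 0.057 and an adjusted p of 0.238 by limma.

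In a further fit, chosen after the data had been seen, the trend of each library with GC content and length was subtracted before the groups were compared. The standard errors shrank for all 10 members, for example from 0.21 to 0.09 for ITGB4 and from 0.22 to 0.09 for ITGB1. ITGA6 was then 0.37 ± 0.09 (SE), with a 95% interval from 0.17 to 0.58 and an adjusted p of 0.606 by limma. ITGA3 was 0.42 ± 0.13 (SE), with a 95% interval from 0.11 to 0.72 and an adjusted p of 0.740. The other 8 members had intervals that held 0. ITGB1 was at -0.09 ± 0.09 (SE) and ITGB4 at 0.04 ± 0.09 (SE). ITGA6 and ITGA3 were the 2 members with an unadjusted p under 0.05 in this fit, and neither passed the adjusted threshold. The share of all genes with an unadjusted p under 0.05 in this fit was not taken, so whether 2 of 10 members exceeds it is not known. From summed transcripts, with the trend left in, ITGA3 was at -0.24.

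**Figure D3:**
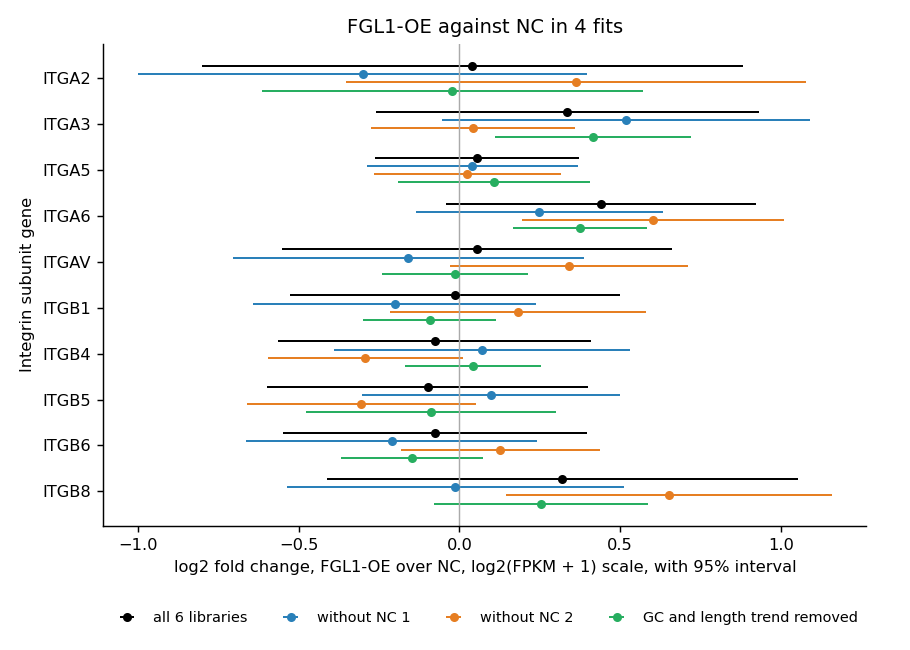
Log2 fold change of FGL1-OE over NC for each integrin gene, on the log2(FPKM + 1) scale with its 95% interval, in 4 fits: all 6 libraries (black), without NC 1 (blue), without NC 2 (orange) and after removal of the trend with GC content and length (green). ITGA6 is above 0 in all 4, from 0.25 to 0.60, and so are ITGA3 and ITGA5. The ITGA6 interval holds 0 with all 6 libraries and without NC 1, and the 4 fits share libraries. ITGA2 and ITGAV lie on either side of 0 depending on the control library left out.

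Because chains work in pairs, the ratio of alpha to beta chain was taken within each library. The ratio of ITGA6 to ITGB4, the hemidesmosome pair, was 0.0633, 0.171 and 0.0956 in NC and 0.124, 0.158 and 0.155 in FGL1-OE. ITGB4 thus exceeded ITGA6 in every library, and NC 1 and NC 2 held the lowest and the highest ratio. The difference between groups was 0.52 on the log2 scale, with an exact permutation p of 0.4, and it was 0.18 without NC 1 and 0.89 without NC 2. The 5 alpha members summed to 0.787, 0.492 and 0.671 of ITGB1 in NC and to 0.845, 0.703 and 0.663 in FGL1-OE. That difference was 0.20, with an exact permutation p of 0.5, and ran from 0.012 to 0.35 with a library left out. ITGAV stood at 0.342, 0.760 and 0.474 of its partners ITGB5, ITGB6 and ITGB8 together in NC and at 0.502, 0.579 and 0.569 in FGL1-OE, a difference of 0.14 with an exact permutation p of 0.7, which was -0.13 without NC 1. All 3 p-values are two-sided and were 0.7 after Benjamini-Hochberg adjustment over the 3 ratios, and 3 against 3 libraries cannot give less than 0.1.

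**Figure D4:**
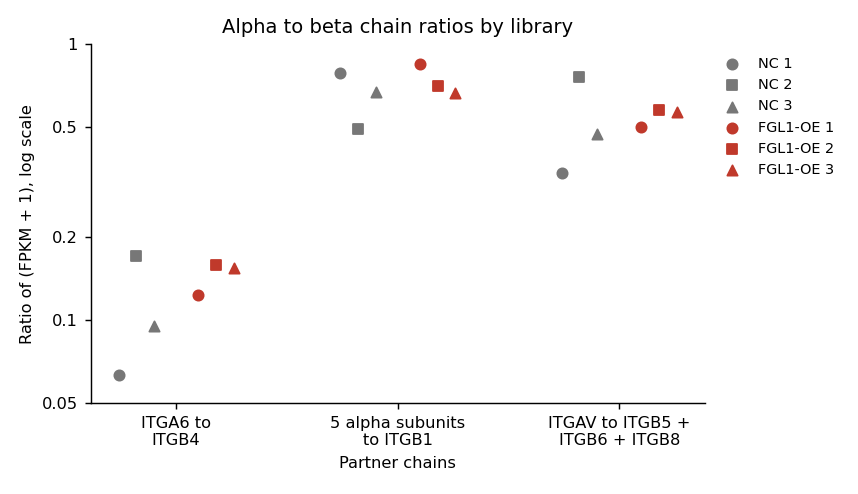
Ratio of alpha to beta chain, computed as (FPKM + 1) over (FPKM + 1) and drawn on a log axis, for 3 sets of partners in each NC (grey) and FGL1-OE (red) library. The FGL1-OE ratios lie inside the NC range for ITGA6 to ITGB4 and for the ITGAV set, and FGL1-OE 1 lies above it for the alpha chains to ITGB1 at 0.845 against 0.787.

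Several members are made as splice forms that differ in the cytoplasmic tail. ITGA3 and ITGA6 each have an exon for an A tail and an exon for a B tail, and the end of the reading frame depends on which is used. The first 30 bases of the coding part of these exons are shown because they carry the part that follows the membrane, which the tails have in common. Capitals mark the bases that all 4 exons share at the same place among their first 15, which are 10 of 15. Coordinates are those of the bases shown, on the plus strand of GRCh38 in GENCODE v29.
ITGA3-202, A tail, chr17:50088225-50088254: TGcGgcTTCTTcAAgcgagcccgcactcgc
ITGA3-201, B tail, chr17:50089110-50089139: TGtGacTTCTTtAAgcggacccgctattat
ITGA6-201, A tail, chr2:172501772-172501801: TGtGgtTTCTTcAAgagaaataagaaagat
ITGA6-202, B tail, chr2:172504091-172504120: TGtGgaTTCTTtAAacgctctaggtacgat
The A tail exon adds 108 coding bases in ITGA3-202 and 105 in ITGA6-201, both whole numbers of codons. The A form of each gene also contains the bases of the B exon, past the end of its reading frame. By mean FPKM over the 6 libraries, the highest transcript was the A form in ITGA3 and the B form in ITGA6. In ITGA6 the A form was the highest in FGL1-OE 3 and ITGA6-207 in NC 2.

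The A form ITGA3-202 held 92.4%, 74.2% and 94.6% of the ITGA3 transcript FPKM in NC and 87.7%, 85.9% and 93.8% in FGL1-OE. The B form ITGA3-201 had 5.89, 12.4 and 3.78 FPKM in NC and 4.10, 5.12 and 3.76 FPKM in FGL1-OE. NC 2 was thus listed with the least A form and the most B form. Few 31-base words set these forms apart: 0% of those of ITGA3-202 and 0.743% of those of ITGA3-201 were absent from every other annotated transcript of the gene. For ITGA6 the B form ITGA6-202 held 49.8%, 36.0% and 64.7% in NC and 72.6%, 50.1% and 43.3% in FGL1-OE, and the groups overlapped. Its A form ITGA6-201 was at 3.38, 3.42 and 3.09 FPKM in NC and at 2.61, 6.20 and 7.99 FPKM in FGL1-OE. FGL1-OE 1 was the lowest library of ITGA6-201 and the highest of ITGA6-202, so the forms traded places within one group.

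ITGAV-201 and ITGAV-202 differ by a pair of coding exons that ITGAV-202 skips, 108 bases in all and again a whole number of codons. They are shown because the assignment of reads to these forms switched between libraries. Both are on the plus strand of GRCh38 and are printed without capitals.
ITGAV-201, chr2:186630797-186630858: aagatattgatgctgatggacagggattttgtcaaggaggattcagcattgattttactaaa
ITGAV-201, chr2:186633329-186633374: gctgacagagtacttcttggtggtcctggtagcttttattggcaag
ITGAV-201 held all of the ITGAV transcript FPKM in NC 1, NC 3 and FGL1-OE 2. Its share was 22.9% in NC 2, 21.2% in FGL1-OE 1 and 37.0% in FGL1-OE 3, where ITGAV-202 was listed at 14.7, 8.88 and 8.76 FPKM. ITGAV-202 was listed at 0 in the other 3 libraries. Only 0.436% of the 31-base words of ITGAV-202 and 0.271% of those of ITGAV-201 were absent from every other transcript annotated for the gene. The switch went with neither group, and the gene level of ITGAV overlapped between groups as well.

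A comparable exchange was seen within ITGB4, between ITGB4-201 and ITGB4-206. ITGB4-206 lacks an exon of the cytoplasmic part that is very rich in G and C, at 80.0% of its 210 bases. It is shown for its base composition, in lower case and from the plus strand of GRCh38.
ITGB4-201, chr17:75753765-75753974: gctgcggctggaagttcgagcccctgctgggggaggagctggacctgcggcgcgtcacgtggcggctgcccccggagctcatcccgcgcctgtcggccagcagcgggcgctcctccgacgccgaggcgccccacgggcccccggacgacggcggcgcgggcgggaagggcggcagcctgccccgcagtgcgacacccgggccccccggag
ITGB4-201, with the exon, was at 64.8, 24.3 and 43.5 FPKM in NC and at 46.3, 44.96 and 48.4 FPKM in FGL1-OE. ITGB4-206, which lacks it, stood at 15.7, 35.8 and 25.4 FPKM in NC and at 35.4, 13.4 and 17.7 FPKM in FGL1-OE. In NC 2 the form without the exon was the higher of the pair. In the other 5 libraries ITGB4-201 was the higher form. The share of ITGB4-206 was 17.0%, 55.2% and 31.1% in NC and 39.0%, 20.1% and 24.7% in FGL1-OE. The share of ITGB4-201 was 53.6 ± 16.3% in NC and 61.9 ± 9.4% in FGL1-OE (mean ± SD, n = 3), a difference of 8.32 percentage points that was 16.5 without NC 1 and 0.254 without NC 2.

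All 34 member transcripts passed the filter on low values. None had an adjusted p under 0.05 by limma, beside 0.0165% of the 30330 transcripts tested, and 1 had an unadjusted p under 0.05, beside 3.53% of all transcripts. That transcript was ITGB6-201, listed at 5.199, 1.91 and 1.64 FPKM in NC and at 0.0168, 1.70 and 0.386 FPKM in FGL1-OE. FGL1-OE 2 lay within the NC range. The log2 difference was -1.21 ± 0.50 (SE), with a 95% interval from -2.42 to -0.01 and an adjusted p of 1.00 by limma. It was -2.50 with a pseudocount of 0.1, -1.83 with each library scaled to a common sum and -0.83 without NC 1. Only 0.0215% of its 31-base words were its own. In 8 of the alternatives no member transcript had an unadjusted p under 0.05, among them the fits without NC 1 and without FGL1-OE 3.

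The coding exons of ITGB6-201 that ITGB6-211 lacks are shown because they set these forms apart, at 285 bases together. They lie on the minus strand of GRCh38 and are printed in the direction of the transcript, the exon nearer the start of the gene first.
ITGB6-201, chr2:160199179-160199258: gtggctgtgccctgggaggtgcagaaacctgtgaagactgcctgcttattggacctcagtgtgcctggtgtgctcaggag
ITGB6-201, chr2:160196216-160196420: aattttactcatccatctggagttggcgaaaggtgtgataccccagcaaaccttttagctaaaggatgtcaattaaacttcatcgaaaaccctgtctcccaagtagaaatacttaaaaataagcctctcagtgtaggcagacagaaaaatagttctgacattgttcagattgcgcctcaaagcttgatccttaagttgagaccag
ITGB6-211 read 0.5004, 3.28 and 2.20 FPKM in NC and 1.31, 2.13 and 0.687 FPKM in FGL1-OE. The share of ITGB6-201 was 91.2%, 23.3% and 28.2% in NC and 0.531%, 23.5% and 14.9% in FGL1-OE, so NC 1 and FGL1-OE 1 stood apart from the other 4. The gene FPKM of ITGB6 ranged from 0.764 to 2.24 times the sum of its transcripts, which shows that the gene and transcript tables were not built as sums of each other.

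Groups did not overlap for 1 member transcript, ITGA3-209, beside 8.22% of all transcripts. It was minor, at 1.37, 1.61 and 0.930 FPKM in NC and 2.95, 2.15 and 2.10 FPKM in FGL1-OE, with a log2 difference of 0.57 ± 0.25 (SE) and an adjusted p of 1.00 by limma. With a pseudocount of 0.1 the difference was 0.85. For ITGB5 the share of ITGB5-201 did not overlap either, at 28.7%, 52.1% and 41.6% in NC and 61.4%, 52.6% and 67.7% in FGL1-OE. The exact permutation p was 0.1, the smallest that 3 against 3 libraries allow, and 0.7 after adjustment over the 7 genes with several transcripts. The level of ITGB5-201 differed by 0.0049 ± 0.26 (SE) on the log2 scale. Its sister form ITGB5-207 was at 29.4, 4.27 and 16.5 FPKM in NC and at 6.66, 8.73 and 4.30 FPKM in FGL1-OE. ITGB5-212 reached 8.61 FPKM in NC 1 and 3.67 FPKM in NC 2 and was listed at 0 in the other 4 libraries. ITGB1 had the steadiest listed make-up, with ITGB1-201 at 94.9% to 96.1% of its transcript FPKM in every library, although 0% of its 31-base words were its own.

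The remaining genes with several transcripts gave shares that overlapped between groups, and the medians over transcripts were close to those of the whole table. The median log2 difference was 0.03 over the 34 member transcripts and 0.02 over all transcripts, with 18 members above and 16 below 0. ITGA6-207 was listed at 6.16 FPKM in NC 2 and at 0 in the other 5 libraries. ITGA2, ITGA5 and ITGB8 had 1 listed transcript each, which gives no share. The gene values depended on the table for 3 members. ITGA3 was 0.34 from the gene table and -0.24 from summed transcripts on the log2 scale. ITGB5 went likewise from -0.10 to -0.58 and ITGB6 from -0.07 to -0.59, all with adjusted p-values of 1.00 by limma.

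**Figure D5:**
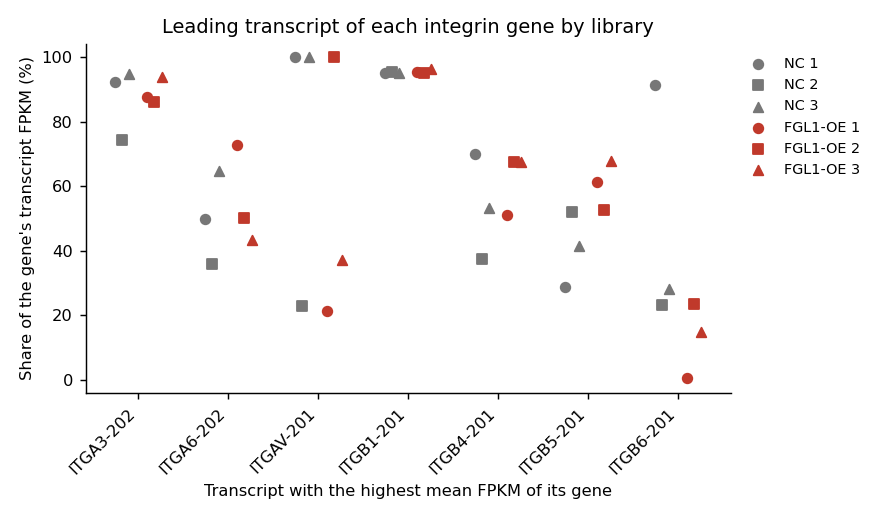
Share in percent of each gene's summed transcript FPKM held by the transcript with the highest mean FPKM over the 6 libraries, in each NC (grey) and FGL1-OE (red) library, for the 7 integrin genes with more than 1 listed transcript. ITGB1-201 stays at 94.9 to 96.1%, ITGAV-201 jumps between 21.2 and 100%, and ITGB5-201 has groups that do not overlap.

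Of 16 other integrin subunits, 4 were listed and 0 had an unadjusted p under 0.05. ITGB2, a beta chain of leukocyte integrins, was the most abundant, at 16.5, 5.78 and 11.7 FPKM in NC and 9.08, 11.0 and 10.04 FPKM in FGL1-OE. Its NC 1 and NC 2 values again bracketed the rest. ITGAE, the partner of ITGB7, was at 3.03 to 3.86 FPKM, with a log2 difference of 0.08, and ITGA2B, a platelet chain, was at 0.638 to 1.19 FPKM, with a log2 difference of -0.09. The alpha partners of ITGB2 (ITGAL, ITGAM, ITGAX and ITGAD), the partner ITGB7 of ITGAE and the partner ITGB3 of ITGA2B were not listed.

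The list of matrix ligands held 23 genes, and all 23 were listed in the table. None had an adjusted p under 0.05, and 2 had an unadjusted p under 0.05 and were higher in FGL1-OE, beside the 2.01% of all genes given above. CCN1, a matricellular ligand of ITGAV and ITGA6 receptors, was at 94.4, 86.7 and 92.2 FPKM in NC and at 120, 123 and 119 FPKM in FGL1-OE. CCN2, its relative, was at 5.35, 5.98 and 6.53 FPKM in NC and at 8.22, 9.57 and 7.48 FPKM in FGL1-OE. The groups of both genes did not overlap, and the log2 differences were 0.40 ± 0.14 and 0.44 ± 0.16 (SE), with adjusted p-values of 1.00 by limma. THBS1, thrombospondin, also had groups that did not overlap, at 15.4 to 21.4 FPKM in NC and 21.5 to 26.6 FPKM in FGL1-OE. Such genes numbered 3 of the 23 ligands, beside 7.15% of all genes. The median log2 difference of the ligand list was -0.02. LAMB3, a laminin chain bound by the ITGA3 and ITGA6 receptors, was abundant, with 53.0 to 128 FPKM in NC and 74.5 to 93.2 FPKM in FGL1-OE. Fibronectin, FN1, was at 1.56 to 2.89 FPKM over the 6 libraries.

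Inside the cell, the tail-binding and signalling genes gave no call either. Of 23 talin, kindlin and adaptor genes, 20 were tested and 0 had an unadjusted p under 0.05, with a median log2 difference of 0.03. PARVA and ACTN1, which tie integrins to actin, had higher values in every FGL1-OE library, with log2 differences of 0.26 and 0.24. VCL, vinculin, had lower values in every one, with a log2 difference of -0.25. Groups thus did not overlap upward for 2 and downward for 1 of the 20 tested, beside 7.15% of all genes. FERMT1, a kindlin of epithelia, was at 0.35 ± 0.21 (SE), and FLNA, filamin, was the most abundant, at 75.8 to 124 FPKM in NC. Of 24 focal adhesion signalling genes, 0 had an unadjusted p under 0.05, with a median of 0.01. RAP1B, a small GTPase that acts on talin, was higher in every FGL1-OE library at 0.36 ± 0.19 (SE). It was the 1 gene of the 24 whose groups did not overlap, beside the same 7.15% of all genes. RAC1 was at 0.30 ± 0.25 (SE), and RHOA was the most abundant at 144 to 210 FPKM.

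The hemidesmosome partners of ITGB4 were 5 genes, and 0 had an unadjusted p under 0.05. PLEC, plectin, was at 73.7, 29.6 and 67.0 FPKM in NC and at 34.6, 37.0 and 57.3 FPKM in FGL1-OE, a log2 difference of -0.33 ± 0.36 (SE). Its GC content was 66.9%, and NC 2 was its lowest library as it was for ITGB4. ERBIN, which binds the ITGB4 tail, was at 0.12 ± 0.32 (SE), and COL17A1, a transmembrane collagen of hemidesmosomes, was below 1 FPKM in every library. Of 13 integrin trafficking genes, 11 were tested and 0 had an unadjusted p under 0.05. NUMB, an endocytic adaptor, was at 0.25 ± 0.33 (SE), RAB11A, a recycling GTPase, at 0.24 ± 0.33 (SE), and HAX1 was the most abundant at 64.3 to 88.6 FPKM.

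The genes whose profile over the 6 libraries lay nearest to ITGA3 were TRAF3, LSS and SYNE4, at Euclidean distances of 0.145, 0.147 and 0.172 between centred log2 profiles. Those nearest to ITGB1 were SS18L1, ITSN2 and CWC27, at 0.0483, 0.0672 and 0.0684. Since they were picked by profile, their likeness to the members is a description only. The GC content was 51.2% to 62.9% in the neighbours of ITGA3 and 40.04% to 46.8% in those of ITGB1.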

How the data were processed

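RNA-seq of TE-1 cells was taken from 3 NC and 3 FGL1-OE libraries, grouped by the genotype in the labels. Per the labels, mRNA was enriched with oligo(dT) beads, with removal of rRNA named as a second route, and libraries were made with a stranded kit. The authors deposited FPKM values per library for genes and transcripts. The submitters' processing notes name StringTie and GRCh37. Versions and the aligner are not given in the sources used here. The authors' columns of group means, fold changes, p-values and q-values were not used.

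The test was limma 3.58.1, run in R 4.3.3 on log2(FPKM + 1) of features that averaged 0.5 FPKM or more, with Benjamini-Hochberg adjustment over each table and a threshold of 0.05. Fold changes on this scale understate those of low genes. Depth is unknown, so no counting intervals are given. GC content and length came from GENCODE 29, which had 32959 of 33090 transcripts and gave values to 97.66% of genes. Each gene took the values of its listed transcript with the highest mean FPKM. Exact permutation tests were two-sided. Python 3.11.15 was used for the rest.

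The members and gene lists were chosen with earlier results of these data known. The genes named are FGL1, the 10 members and their transcripts above that filter, and from each list the genes with an unadjusted p under 0.05, or otherwise the 2 with the largest absolute log2 difference and the most abundant. The 3 genes nearest in profile to ITGA3 and ITGB1 were also named. LAMB3, FN1, THBS1, ACTN1, VCL and COL17A1 were added after their values were seen. PARVA and RAP1B came under the rule by their log2 differences. Alternatives were a pseudocount of 0.1, no filter, a minimum mean of 1 FPKM, a common sum of 1000000, quantile normalization, a replicate block, an ordinary linear model, a variance trend, transcript sums and leaving out each library. The fit that removed each library's trend with GC content and length was chosen after the data were seen.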

Additional observations from a re-analysis of the deposited data

How the results depend on the processing

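The number of integrin genes and of integrin transcripts with an adjusted p under 0.05 by limma was 0 under every alternative run, and so was that of the other gene lists without the markers. Adjusted p-values of members over the alternatives ran from 0.194 to 1.00 for genes and from 0.318 to 1.00 for transcripts. FGL1 kept its call under all of them, with log2 differences from 5.12 to 8.12. The median log2 difference of the members was 0.05 and ran from -0.02 to 0.16, where the same median taken per library had an SD of 0.20 within groups. Integrin genes with an unadjusted p under 0.05 numbered 2 with the GC and length trend removed and 0 to 2 with a library left out. Integrin transcripts with one, 1 in the reported fit, numbered 0 with a pseudocount of 0.1, a minimum mean of 1 FPKM, a common sum, the variance trend or the GC and length trend removed, and 0 to 2 with a library left out. The other lists had 2 such genes, 21 without NC 2 and 0 without FGL1-OE 1 or without FGL1-OE 2. The share of all genes and of all transcripts was taken only in the reported fit, so the counts of the other fits have no background to be read against.

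Whether the replicate numbers pair the libraries was not settled. Over genes the correlations of same-numbered deviations were 0.345, 0.282 and -0.061, and those of differently numbered libraries were not computed. With the replicate block, 1 integrin gene (ITGA6) and 0 integrin transcripts had an unadjusted p under 0.05, and no call changed. The shares of all genes and of all transcripts with this block were not taken.

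After removal of the trend with GC content and length, the sign turned for ITGA2 (-0.022), ITGAV (-0.014) and ITGB4 (0.041) and for the transcripts ITGA2-201 (-0.0015) and ITGB5-201 (-0.00043). Quantile normalization turned ITGB1-201 (0.032) and ITGB5-201 (-0.0056), a pseudocount of 0.1 turned ITGB1-215 (0.0047), and summed transcripts turned ITGA3 (-0.24). The cause was not tested.

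Leaving out each library in turn gave both signs for 7 of the 10 genes, and the rest, ITGA3, ITGA5 and ITGA6, kept theirs. The log2 differences ran from -0.30 to 0.36 for ITGA2, -0.16 to 0.34 for ITGAV, -0.20 to 0.18 for ITGB1, -0.29 to 0.069 for ITGB4, -0.30 to 0.10 for ITGB5, -0.21 to 0.13 for ITGB6 and -0.013 to 0.65 for ITGB8. NC 1 or NC 2 was the library at both ends for each of these. Among transcripts, 14 of 34 kept their sign under all alternatives. Those that lost it with a library left out ran from -0.32 to 0.41 for ITGA2-201, -0.60 to 0.026 for ITGA3-202, -0.15 to 0.057 for ITGA3-213, -1.42 to 0 for ITGA6-207, -0.91 to 0.14 for ITGAV-201, -0.20 to 0.19 for ITGB1-201, -0.020 to 0.36 for ITGB1-204, -0.00044 to 0.37 for ITGB1-209, -0.41 to 0.057 for ITGB1-210, -0.50 to 0.33 for ITGB1-215, -0.19 to 0.50 for ITGB4-201, -0.49 to 0.69 for ITGB4-202, -0.62 to 0.044 for ITGB4-206, -0.16 to 0.15 for ITGB5-201, -0.25 to 0.56 for ITGB5-209, -0.20 to 0.41 for ITGB5-210, -0.41 to 0.66 for ITGB6-204, -0.14 to 0.53 for ITGB6-205, -0.69 to 0.069 for ITGB6-211 and -0.021 to 0.89 for ITGB8-201. The ratio of ITGAV to its beta partners ran from -0.13 to 0.45 on the log2 scale. Shares of the highest transcript by mean differed by -4.36 to 5.84 percentage points for ITGA3-202, -3.43 to 12.5 for ITGA6-202, -0.041 to 0.563 for ITGB1-201, 0.254 to 16.5 for ITGB4-201, -47.3 to -5.77 for ITGAV-201, 13.7 to 25.4 for ITGB5-201 and -46.7 to -12.8 for ITGB6-201. A pseudocount and a common sum do not enter the shares. Depth is unknown and limits what low transcripts can show.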
